A study of Mus musculus with 6 samples.

Results

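The 10 genes described here set the pace of the G1 phase of the cell cycle: the D cyclins Ccnd1, Ccnd2 and Ccnd3, their kinases Cdk4 and Cdk6, the CIP/KIP inhibitors Cdkn1a, Cdkn1b and Cdkn1c, and the INK4 inhibitors Cdkn2c and Cdkn2d. They were taken by gene symbol from the table of read counts, in which all 10 of 10 were found among 52459 genes. The table holds RNA-seq of mouse megakaryocytic-erythroid progenitors (MEP), marrow cells that can form megakaryocytes or red cells, from 3 wild-type (WT) and 3 Tmprss6-/- (KO) libraries. Each library was a pool of 3 mice. Tmprss6 is a liver protease that restrains hepcidin, and its loss makes mice iron deficient; the labels give no treatment, age or strain. The cells were sorted from lineage-depleted marrow for cKit and CD150 and against Sca, the Fc gamma receptors, CD105 and CD41. The labels do not say in which cells the Tmprss6 allele was deleted.

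A D cyclin binds CDK4 or CDK6, and the active kinase phosphorylates the retinoblastoma protein RB, which then releases E2F transcription factors and lets a cell enter S phase. INK4 proteins bind CDK4 and CDK6 and keep the D cyclin away, whereas CIP/KIP proteins bind assembled cyclin-kinase complexes and mainly restrain CDK2. In the mouse, cyclin D3 sets how many divisions red cell precursors complete, CDK6 acts in blood progenitors, and the inhibitors p18 (Cdkn2c) and p27 (Cdkn1b) accompany the exit of erythroid precursors from the cycle.

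The libraries held 13402209 to 22986837 counts in total. Levels are given as CPM, counts scaled to a common library size with TMM factors, and a floor of 3 counts equals 0.138 to 0.220 CPM. Tmprss6 had 0 to 5 counts per library and checked no label. Replicate 3 of both genotypes had 175 or more Xist counts and at most 1 Ddx3y count, and the other 4 libraries had at most 1 Xist count and at least 872 Ddx3y counts, so that sex moved with the replicate number. Summed CPM of the 10 MEP markers, Kit and Gata1 among them, was 2311 to 4745 in WT and 2427 to 4176 in KO, with none of the 10 at 0 in any library. KO replicate 2 stood apart. All 10 late erythroblast markers were highest there, with a sum of 5303 CPM against 151 to 237 CPM in WT and 355 and 392 CPM in KO replicates 1 and 3. All 12 eosinophil, basophil and mast cell markers were also highest there (8507 CPM, against 144 to 803 in WT and 288 and 43.2 in KO replicates 1 and 3). The genes Prg3, Epx, Ear1, Mcpt8, Cma1 and Il5ra of that list were at 0 in KO replicate 3. The same held for all 11 neutrophil markers (3417 CPM, against 84.5 to 379 in WT and 119.6 and 279 in the other KO libraries) and all 11 macrophage markers (2449 CPM, against 32.9 to 216 and 90.3 and 210.2). Of 11 lymphoid markers 10 were highest there (836 CPM, against 255 to 443 and 470.4 and 333), and of 11 megakaryocyte markers 6 (459 CPM, against 250.2 to 372 and 284 and 310.2). Log2 fold changes of the 10 genes are therefore given with and without this library. In bulk libraries, fewer cells of a type and less RNA per cell cannot be told apart.

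Levels per length spanned 3 orders of magnitude. Per kb of the longest annotated transcript, Cdk4 led in WT with 415 ± 118 CPM per kb (SD, n = 3), above 98.9% of the genes tested. Cdkn2d, Ccnd2 and Ccnd3 followed at 43.3 ± 4.41, 40.9 ± 10.6 and 40.4 ± 8.56 CPM per kb. Their WT ranges overlapped, so by this length these neighbours did not differ beyond their spread. Cdk6 stood at 17.4 ± 5.40, Cdkn2c at 6.38 ± 0.417, Cdkn1a at 3.67 ± 0.903 and Cdkn1b at 1.34 ± 0.406 CPM per kb, each with a range apart from its neighbours. Ccnd1 and Cdkn1c closed the order at 0.509 ± 0.296 and 0.308 ± 0.279 CPM per kb, above 8.93% and 4.66% of tested genes, with overlapping ranges. Ranks were the same when the length of all annotated exons was used in place of the longest transcript, but the distances were not. By that length the WT means of Cdkn2d, Ccnd2, Ccnd3 and Cdk6 were 39.1, 27.5, 17.8 and 14.3 CPM per kb. Overlaps of ranges are given for the longest transcript only. In KO the order of the means differed only in that Ccnd3 (65.7 ± 33.2 CPM per kb) moved ahead of Cdkn2d and Ccnd2. The KO ranges of these genes overlapped, and Ccnd3 led them in KO replicate 2 alone, at 102.4 CPM per kb. Cdkn2d was above Ccnd3 in KO replicate 1 (47.8 against 37.6), and Ccnd2 was above it in KO replicate 3 (59.5 against 57.0).

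**Figure D1:**
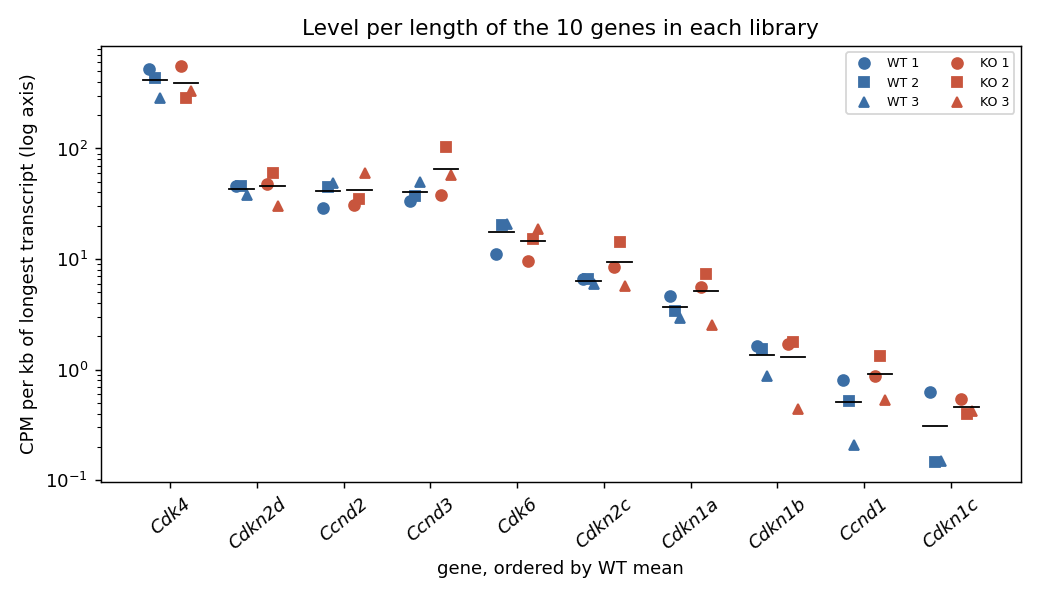
Level per length (CPM per kb of the longest transcript, log axis) of the 10 genes in each of the 6 libraries; circles, squares and triangles are replicates 1, 2 and 3, blue WT and red KO, and black lines are means of 3 libraries. Cdk4 sits about an order of magnitude above the next 3 genes, and KO replicate 2 is the highest library for 6 of the 10.

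Ccnd3 (ENSMUSG00000034165, chromosome 17, 47505051 to 47599691 on GRCm38), which encodes cyclin D3, had the smallest p of the 10 genes, and its difference rested on KO replicate 2. Its levels in replicates 1 to 3 were 130.1, 144 and 193 CPM for WT and 145, 395 and 220.1 CPM for KO. KO replicate 2 stood far above every other library, and KO replicate 1 lay inside the WT range, so the groups overlapped. The log2 fold change was 0.70 (SE 0.40, edgeR adjusted p = 1.00), a 1.63-fold difference, and Ccnd3 was higher in KO in 3 of 3 pairs of equal replicate number, with log2 differences of 0.16, 1.45 and 0.19. Without KO replicate 2 the log2 fold change was 0.23 (SE 0.34, edgeR adjusted p = 1.00). The late erythroblast markers were highest in the same library, and their part in the Ccnd3 value was not tested. Its exons share 361 bases with Bysl on the other strand (1409 to 2176 counts), and the pseudogene Ccnd3-ps had 10 to 24 counts, so that Ccnd3 counts are uncertain to that extent.

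Ccnd2 (ENSMUSG00000000184, chromosome 6, 127125162 to 127152193), which encodes cyclin D2, was the other D cyclin of these cells. It stood at 183, 283 and 309.9 CPM in WT and at 196, 220.4 and 377 CPM in KO replicates 1 to 3. Replicate 1 of each genotype was the lowest and the groups overlapped throughout. The log2 fold change was 0.03 (SE 0.36), far from the threshold (edgeR adjusted p = 1.00), and 0.15 (SE 0.41) without KO replicate 2. Ccnd1, encoding cyclin D1, the D cyclin of many epithelial tissues, was low but above the floor of 3 counts. It had 65, 28 and 11 counts in WT and 54, 80 and 27 counts in KO. The log2 fold change, 0.84 (SE 0.63, edgeR adjusted p = 1.00), was the largest of the 10 and its error was exceeded only by that of Cdkn1c. Ccnd1 was higher in KO in 3 of 3 pairs, and without KO replicate 2 the value was 0.46 (SE 0.66). Its annotated exons share 1100 bases with a gene on the other strand, Oraov1, which had 239 to 359 counts per library; without strand in the counts, reads of these genes cannot be told apart. As a share of the D cyclins per length, Ccnd1 made up 0.211% to 1.27% in all 6 libraries. By the longest transcript, Ccnd2 and Ccnd3 divided the rest about evenly in 5 libraries, with Ccnd3 at 45.3% to 54.1%. In KO replicate 2 Ccnd3 reached 73.9%. The even split depended on the length used. Per kb of all annotated exons, the WT means were 27.5 CPM for Ccnd2 and 17.8 CPM for Ccnd3.

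Cdk4 (ENSMUSG00000006728, chromosome 10, 127063534 to 127067920), a kinase partner of the D cyclins, was at 1072, 892 and 591 CPM in WT and 1151, 589.7 and 674 CPM in KO replicates 1 to 3. Both replicate 1 libraries were the highest, and KO replicate 2 was level with WT replicate 3. Its log2 fold change was -0.08 (SE 0.38, edgeR adjusted p = 1.00), and 0.10 (SE 0.40) without KO replicate 2, so that no direction held. Cdk4 exons share 641 bases with Tspan31 on the other strand, which had 1099 to 2818 counts against 8306 to 23248 for Cdk4. Cdk6 (ENSMUSG00000040274, chromosome 5, 3341485 to 3531008), the other kinase, was at 129, 232 and 240.4 CPM in WT and 111, 176 and 218 CPM in KO. Here both replicate 1 libraries were the lowest. Cdk6 was the only one of the 10 genes that was lower in KO in 3 of 3 pairs, by log2 differences of -0.22, -0.40 and -0.14, but the groups overlapped and the fit gave -0.25 (SE 0.37, edgeR adjusted p = 1.00). The value without KO replicate 2 was -0.29 (SE 0.44). Cdk4 made up 93.2% to 98.3% of the kinase level per length, and the Cdk6 share was lowest in replicate 1 of each genotype, at 2.10% in WT and 1.69% in KO against 4.43% to 6.76% in the other 4 libraries. Among tested genes, both replicate 1 libraries were the lowest pair or the highest pair of the 6 in 51.5%, and among the 10 genes in 4 (Ccnd2, Cdk6, Cdk4 and Cdkn1c), a share near that background.

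Stretches before RefSeq starts of the kinase genes are shown because Cdk4, the most abundant of the 10, is a textbook target of MYC, which binds the E-box CACGTG. Sequences are those of RefSeq on GRCm38.p6, plus strand, with E-boxes in capitals; the first lies upstream of the Cdk4 start at chr10:127063285-127063533, the second is a match within the annotated Cdk6 gene, 5′ of an internal RefSeq start (3343893) and downstream of the first base of the gene, at chr5:3343661-3343690.
Cdk4: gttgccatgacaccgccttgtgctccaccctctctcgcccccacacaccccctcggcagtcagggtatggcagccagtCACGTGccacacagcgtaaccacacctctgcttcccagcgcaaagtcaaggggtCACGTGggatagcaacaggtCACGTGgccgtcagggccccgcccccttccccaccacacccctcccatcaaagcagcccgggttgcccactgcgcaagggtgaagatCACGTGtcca
Cdk6: gttctgcggcccCACGTGggtgaacccccg
In the 250 bases before these RefSeq starts, Cdk4 held 4 E-boxes and Cdk6 1. At least 1 was found in 6.02% of the 32851 such windows of the genome, and 4 or more in 7 of them (0.0213%), a cutoff set at the count of Cdk4 itself. Windows were at hand for 7 of the 10 genes (Ccnd3, Cdk4, Cdk6, Cdkn1a, Cdkn1b, Cdkn2c and Cdkn2d), 10 windows in all, and no E-box was in the others. On either strand, the FOXO letters GTAAACA (3.17% of all windows) were found once, at the upstream start of Ccnd3. The E2F letters TTTCCCGC (0.895%) and TTTGGCGC (0.417%), the GATA letters AGATAA (9.99%), the STAT letters TTCNNNGAA (7.02%) and the CRE letters TGACGTCA (1.55%) were not in these 10 windows. These are matches of letters, with no measure of binding. Myc, named here for the E-boxes after its values were seen, was at 659, 779 and 1429 CPM in WT and 617, 625 and 1359 CPM in KO. Cdk4 was at 1072, 892 and 591 CPM in the same WT libraries, falling where Myc rose, and at 1151, 589.7 and 674 CPM in KO. Any part of Myc in the Cdk4 level was not tested.

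Of the CIP/KIP inhibitors, Cdkn1a (ENSMUSG00000023067, chromosome 17, 29090979 to 29100722), the gene of the p53-inducible inhibitor p21, was at 9.73, 7.03 and 6.12 CPM in WT and 11.6, 15.3 and 5.29 CPM in KO. The KO libraries held both the highest and the lowest value, and the log2 fold change, 0.49 (SE 0.47, edgeR adjusted p = 1.00), came to 0.14 (SE 0.46) without KO replicate 2. Cdkn1b (ENSMUSG00000003031, chromosome 6, 134920401 to 134925513), which encodes p27, was at 7.38, 6.96 and 3.98 CPM in WT and 7.71, 8.15 and 1.98 CPM in KO. Replicate 3 was the lowest library of each genotype, and pair 3 alone was lower in KO, by a log2 difference of -0.96, on 56 counts in WT and 27 in KO. Over all 6 libraries the value was -0.04 (SE 0.59, edgeR adjusted p = 1.00), and without KO replicate 2 it was -0.33 (SE 0.64). Cdkn1c, the imprinted gene for p57 that marks quiescent stem cells, had 26, 4 and 4 counts in WT and 17, 12 and 11 in KO, close to the floor of 3 counts, and its log2 fold change was 0.52 (SE 0.72, edgeR adjusted p = 1.00), or 0.61 (SE 0.86) without KO replicate 2. Its exons share 625 bases with Gm44732 on the other strand, which had 0 counts in all 6 libraries. The 3 genes together summed to 3.97 to 6.93 CPM per kb in WT and 3.40 to 9.54 in KO, against 44.1 to 52.8 and 35.7 to 75.0 for the 2 INK4 genes.

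The INK4 inhibitors were the steadiest of the group in WT. Cdkn2d (ENSMUSG00000096472, chromosome 9, 21288410 to 21291407), which encodes p19, was at 64.6, 65.8 and 54.4 CPM in WT and 68.1, 86.2 and 42.8 CPM in KO. The KO libraries spread to both sides of the WT range, with a coefficient of variation of 10.2% in WT and 33.2% in KO, and the fitted log2 difference was 0.09 (SE 0.32, edgeR adjusted p = 1.00). Without KO replicate 2 it had the other sign, -0.15 (SE 0.32). Cdkn2c (ENSMUSG00000028551, chromosome 4, 109660876 to 109667189), which encodes p18, was at 16.5, 16.3 and 14.6 CPM in WT, a coefficient of variation of 6.53% where the median tested gene had 31.1%. In KO it was at 20.8, 35.6 and 14.0 CPM, so that KO replicates 1 and 2 lay above every WT library and KO replicate 3 just below them. The log2 fold change was 0.57 (SE 0.39, edgeR adjusted p = 1.00), and 0.14 (SE 0.32) without KO replicate 2. The other INK4 genes, Cdkn2a and Cdkn2b, were barely detected, Cdkn2a with 0 counts in all 6 libraries and Cdkn2b at 0 in 4. Cdkn2b was at 0.184 CPM in WT replicate 1 and 0.249 CPM in KO replicate 2, just above the floors there (0.138 and 0.187 CPM).

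**Figure D2:**
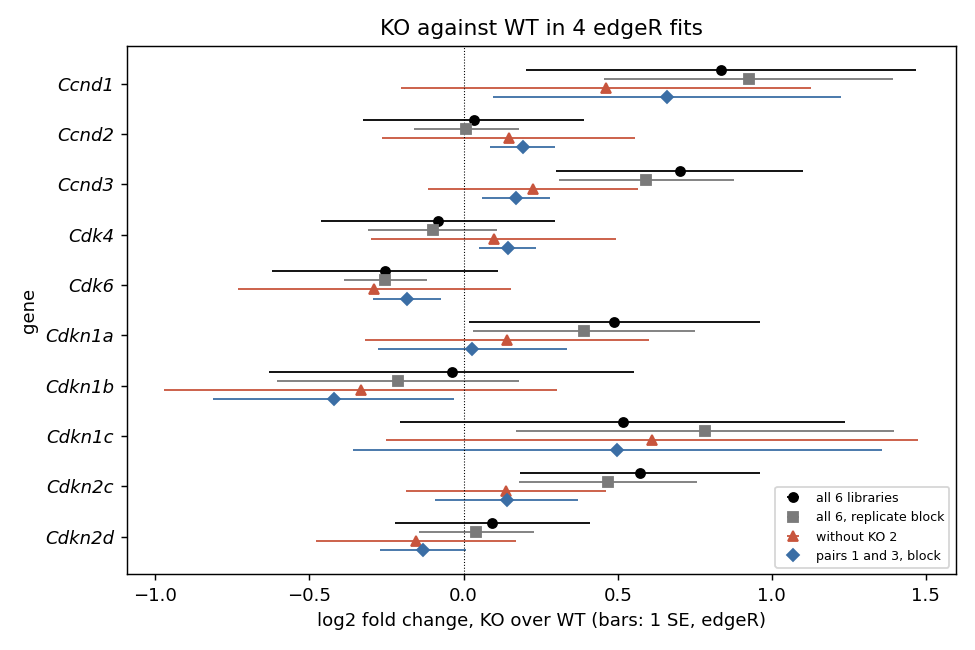
Log2 fold change of KO over WT (points) with 1 SE (bars) for the 10 genes in 4 edgeR fits: all 6 libraries, all 6 with the replicate number as a block, 5 libraries without KO replicate 2, and the pairs 1 and 3 alone with the block. Ccnd3, Cdkn1a and Cdkn2c move toward 0 once KO replicate 2 is left out, and Cdk6 stays below 0 in all 4.

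No member differed between genotypes past the threshold. edgeR called 0 of the 10 genes, and 0 of 13453 genes tested (0%), at the adjusted threshold of 0.05; before adjustment, 0 of the 10 and 234 genes (1.74%) had p below 0.05. The same fit with the replicate block called 0 genes (0%). DESeq2 called 6 genes (0.0446%), 24 with the block (0.178%), and limma voom 0 (0%), none of them a member; in DESeq2 with the block Ccnd3 reached an unadjusted p of 0.028 (DESeq2 adjusted p = 0.88). In the pairs 1 and 3 alone, with the block, 117 of 13572 genes passed (0.862%) and 0 of the 10; the smallest adjusted p of a member there was 0.48, that of Ccnd2 (log2 fold change 0.19, SE 0.11). The KO and WT ranges did not overlap in 0 of the 10 genes, against 4.03% of genes tested. A same direction in 3 of 3 pairs was seen in 3 of the 10 (Ccnd1, Ccnd3 and Cdk6), and in 24.9% of genes tested. KO replicate 2 was the highest of the 6 libraries for 6 of the 10, Ccnd1, Ccnd3, Cdkn1a, Cdkn1b, Cdkn2c and Cdkn2d, and for 23% of genes tested.

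Ratios within a library do not depend on its scaling. The share of Cdkn2c among the counts of Cdkn2c and Cdkn2d in replicates 1 to 3 was 20.3%, 19.8% and 21.2% for WT and 23.4%, 29.2% and 24.6% for KO. All 3 KO libraries were above all 3 WT libraries. This was 1 of 4 ratios looked at, the groups overlapped in the other 3, and how often other gene pairs part in this way was not computed. The exact 95% binomial interval of KO replicate 2, 27.2% to 31.3%, lay above those of all WT libraries. Those of KO replicates 1 and 3, 21.2% to 25.7% and 21.6% to 27.8%, overlapped the intervals of all 3 WT libraries, whose upper bounds were 22.3%, 22.2% and 23.9%. The log2 ratio of Cdkn2c over Cdkn2d was -1.96 ± 0.060 in WT and -1.53 ± 0.23 in KO (SD, n = 3). Intervals cover counting error only, and the ratio of chosen genes was given no test. The summed late erythroblast markers also parted the groups, at 355, 5303 and 392 CPM in KO replicates 1 to 3 against 151 to 237 CPM in WT. Their part in the Cdkn2c share was not tested. The share of Cdkn1b among Cdkn1b and Cdkn1a counts was 39.4% to 49.8% in WT and 34.75% and 27.3% in KO replicates 2 and 3, with KO replicate 1 inside the WT range. The share of Ccnd3 among Ccnd3 and Ccnd2 counts was 33.8% to 41.6% in WT and 36.9%, 42.5% and 64.2% in KO, the last in KO replicate 2. For Cdk6 among the kinases, the share was 10.7%, 20.7% and 28.9% in WT and 8.79%, 23.0% and 24.4% in KO, so that replicate 1 parted from the others more than the genotypes did.

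**Figure D3:**
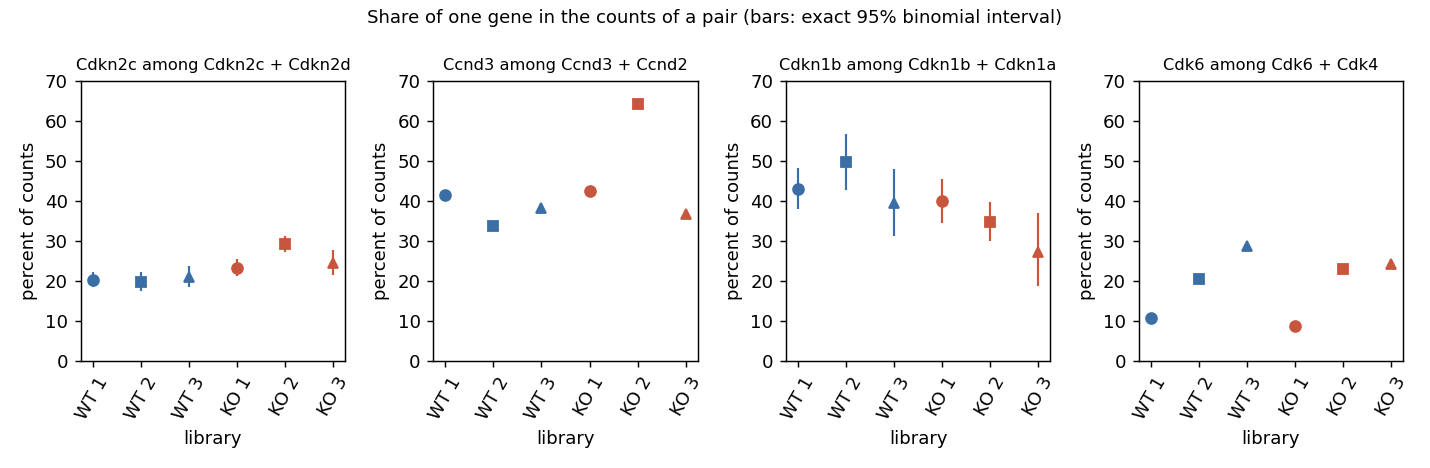
Percent of the counts of a gene pair that fell on its first gene in each library (points; blue WT, red KO; bars are exact 95% binomial intervals, which cover counting error only). The Cdkn2c share is 19.8% to 21.2% in WT and 23.4% to 29.2% in KO, the Ccnd3 share stands out in KO replicate 2 alone, and the Cdk6 share is lowest in both replicate 1 libraries.

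Downstream of the D cyclins, genes of the E2F program leaned to higher values in KO. All 18 of 18 E2F target genes had a positive log2 fold change over the 6 libraries, with a median of 0.32, against 49.3% and a median of -0.0048 over all genes tested. The 18 genes were read from the same 6 libraries and are not independent of each other, so their number is no test. Without KO replicate 2, all 18 were again positive, with a median of 0.36. None of the 18 passed edgeR's threshold in either fit. An unadjusted edgeR p under 0.05 was seen for 1 of them over the 6 libraries (1.74% of genes tested) and for 0 without KO replicate 2. It was seen for 7 with the replicate block (476 of 13453 genes tested) and for 11 in the pairs 1 and 3 (1789 of 13572). In the pairs 1 and 3 the only one to pass the adjusted threshold was Rrm2, a subunit of the nucleotide reductase (log2 fold change 0.74, edgeR adjusted p = 0.0034). Rrm2 was at 242, 107 and 114 CPM in WT and 372, 632 and 208 CPM in KO. Of the 10 late erythroblast markers tested, 8 also had positive values without KO replicate 2 (median 1.17, 0 called), and 4 were called higher in the pairs 1 and 3, against 0.862% of genes called there in either direction; their part in the values of the E2F targets was not tested. Rrm1, its partner subunit, and Cdc6 and Cdc45, which act at replication origins, had log2 fold changes of 0.50, 0.59 and 0.46 over all 6 libraries. All 6 genes of the CDK2 module, the kinase step after the D cyclins, had positive values (median 0.45; 0.51 without KO replicate 2), with 0 calls over the 6 libraries. In the pairs 1 and 3, 5 of the 6 were positive and 2 were called. Those 2 were Ccna2, cyclin A2 (70.6, 52.0 and 46.6 CPM in WT; 112, 206 and 72.6 CPM in KO), and Ccne1, cyclin E1 (75.5, 40.6 and 37.5 CPM; 113, 122 and 53.1 CPM). Each was higher in KO in every pair, and 24.9% of genes tested had the same direction in 3 of 3 pairs. Ccne2 and Cdk2 had values of 0.59 and 0.19. Neither list is independent of the earlier results known when it was chosen.

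Of the RB and E2F genes themselves none was called. Of the 10 E2F and DP genes 8 had positive values over the 6 libraries (median 0.28) and 7 without KO replicate 2 (0.19), with 0 calls in either. E2f2, an E2F of late erythroid cells, was at 6.90 to 8.82 CPM in WT and at 7.22, 93.0 and 12.3 CPM in KO, so that its log2 fold change, 2.25 over all 6 libraries (SE 0.90, edgeR adjusted p = 1.00), was 0.31 without KO replicate 2. E2f1, E2f4 and E2f7 had values of 0.36, 0.33 and 0.82, the last -0.45 without KO replicate 2. The RB family genes Rb1, Rbl1 and Rbl2 had values of 0.23, 0.15 and -0.29, none called, with a median of 0.15 that was -0.17 without KO replicate 2. Of 3 genes of the CDK-activating kinase, Cdk7, Ccnh and Mnat1, 1 had a positive value (median -0.14) and 0 were called; without KO replicate 2 there were 2, with a median of 0.06. Of 11 genes that turn over D cyclins and p27, 5 had positive values (median -0.04) and 0 were called, and without KO replicate 2 it was 7 with a median of 0.06, so that neither list kept a direction. Those of smallest p were Skp2, which targets p27 (0.25), Skp1a (-0.28), Cul1 (0.18) and Fbxw7 (0.22). Of the 10 upstream transcription factors 9 were tested, 1 with a positive value (median -0.12) and 0 called, the 4 of smallest p being Mycn (-0.25), Foxo1 (0.38), Stat5a (-0.27) and Stat5b (-0.23). Without KO replicate 2, 3 of the 9 were positive (median -0.06) and Foxo1 was at -0.06.

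**Figure D4:**
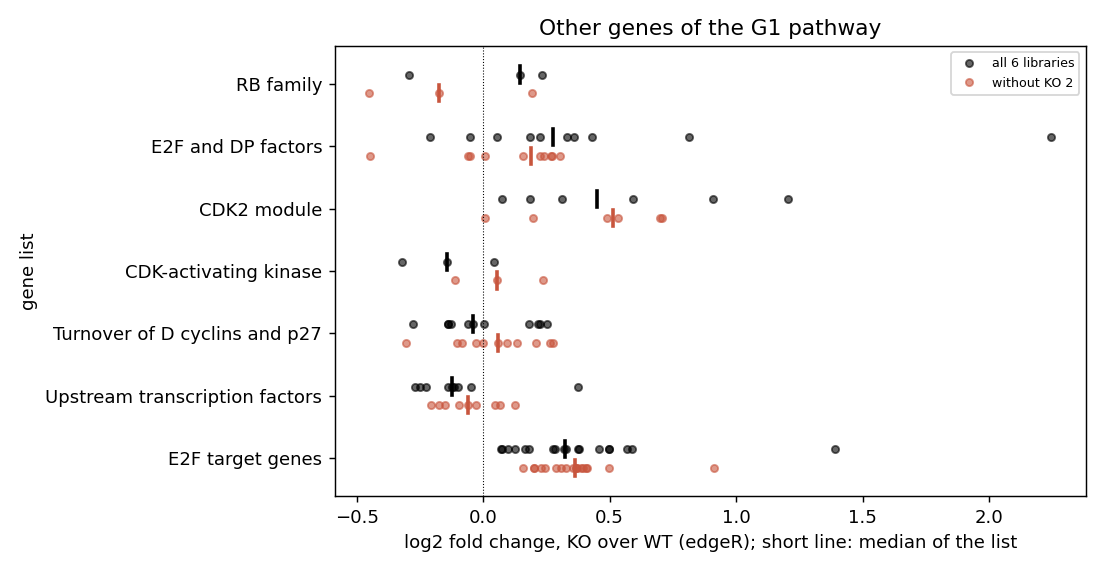
Log2 fold change of KO over WT for each tested gene of 7 lists of the G1 pathway (points), with the list median (short lines), over all 6 libraries (black) and without KO replicate 2 (red). All 18 E2F target genes and all 6 genes of the CDK2 module lie above 0 in both fits, and the other lists lie on both sides of 0.

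The genes most like the 3 members of smallest p were found among 8505 or 8506 tested genes with a mean of at least 10 CPM, by Pearson's r of log2 CPM over the 6 libraries, as a description of libraries that share depth and cell content. For Ccnd3 these were Cchcr1 (r = 0.996) and the mitochondrial transporter gene Abcb10, an erythroid gene (r = 0.993), at 0.992 and 0.977 without KO replicate 2. For Cdkn2c they were Retnlg, a gene of neutrophils (r = 0.993), and Slc46a3 (r = 0.992, and 0.948 without that library). Retnlg was at 175 CPM in KO replicate 2 and at most 5.08 CPM elsewhere, so that it reached the minimum of 10 CPM through that library alone. Without KO replicate 2 its r was 0.957, at levels of 0.356 to 5.08 CPM, below that minimum, so no weight is put on its likeness. For Ccnd1 they were Actr3, of the actin-nucleating complex, and Aup1 (r = 0.986 and 0.981, and 0.980 and 0.976 without KO replicate 2). Ccnd1 itself had only 11 to 80 counts per library, and how high r would be by chance among so many genes was not computed.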

How the data were processed

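RNA-seq was measured in 3 WT and 3 Tmprss6-/- MEP libraries, grouped by their labels. The deposited values are read counts per Ensembl gene, whole numbers with no scaling, which the authors made with FastQC 0.11.5, STAR 2.5.3a and edgeR on builds named as GRCm38.p3 and GRCh38.p3, per the submitters' processing notes; the counter, its strand setting and its handling of reads with several matches were not given in the sources used here. Per the labels' protocols, SMART-Seq v4 and Nextera XT were used, which do not mark strand. Totals were 13402209 to 22986837 counts per library.

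Here filterByExpr of edgeR 4.0.16 (minimum count 10, minimum total 15) kept 13453 of 52459 genes, all 10 members among them, and TMM scaled the libraries. Genotypes were compared over all genes with edgeR's quasi-likelihood test, two-sided, at a threshold of 0.05 after Benjamini-Hochberg adjustment. SE is that of the log2 fold change. Log2 CPM per library add a prior count of 2. Lengths and exon overlaps are from GENCODE M21 (GRCm38). Shares have exact 95% binomial intervals (scipy 1.17.1), which cover counting error only. The fits were also run on simulated counts with known changes put in. Those counts had no differences by replicate number, sex or cell content, so they do not bear on such differences here. R 4.3.3, DESeq2 1.42.0 and limma 3.58.1 were used.

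The members and gene lists were chosen with earlier results of these data known. All members were named, and up to 4 genes of smallest p per list. Libraries of equal replicate number were taken as pairs. Their deviations from group means correlated at 0.53, 0.16 and 0.63 for numbers 1 to 3, and libraries of unequal number were not compared. Nothing in the labels says what a number stands for. The fit with the block was an alternative, beside DESeq2, voom, other scalings and filters, the pairs 1 and 3, and leaving out each library.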

Additional observations from a re-analysis of the deposited data

How the results depend on the processing

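No member was called under any of the 15 alternatives run (0 each), and the count of genes called over the table was 0 in all but the block fit of pairs 1 and 3 (117), DESeq2 (6) and DESeq2 with the replicate block (24). The block fit of all 6 libraries called 0 genes and changed no other call; why the counts differ was not tested. Before adjustment, p was below 0.05 for 234 genes in the main comparison, 476 with the block, 1789 in pairs 1 and 3, 346 in DESeq2 and 97 in voom. The log2 fold changes of Ccnd1, Ccnd3, Cdk6, Cdkn1a, Cdkn1c and Cdkn2c kept their sign in every alternative that could test them; Cdkn1c was not tested with a minimum of 1 CPM in 3 libraries. Leaving out 1 library gave -0.32 to 0.20 for Ccnd2, -0.44 to 0.11 for Cdk4, -0.33 to 0.37 for Cdkn1b and -0.15 to 0.32 for Cdkn2d. In pairs 1 and 3, Cdk4 was at 0.14 and Cdkn2d at -0.13, on the other side of 0 from the main values; the cause was not tested. Over the alternatives Ccnd3 ranged from 0.17 to 0.97, Cdkn2c from 0.14 to 0.83, Cdkn1a from 0.03 to 0.81, Cdk6 from -0.50 to -0.03 (nearest 0 without KO replicate 1), Ccnd1 from 0.46 to 1.32 and Cdkn1c from 0.20 to 1.59 (both highest without WT replicate 1). Ccnd1 and Cdkn1c, with as few as 11 and 4 counts in a library, are limited by depth.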
